A study of Mus musculus with 9 samples.

Results

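The comparison set medullary thymic epithelial cells with silenced C2TA against the same cells with C2TA knocked out. C2TA, encoded by Ciita, switches on the MHC class II genes. The groups were the 3 arrays titled C2TA knockdown (replicates 4 to 6) and the 3 arrays titled C2TA knock-out (replicates 7 to 9), which are 6 of the 9 arrays of the series; the wild-type arrays were left out. All groups were cells carrying CD80, sorted from the thymus of female Balb/c mice aged 4 to 6 weeks. By the labels the replicates are biological; the number of mice per array is not stated, and p-values therefore reflect the variation among these arrays alone. The labels also do not say how C2TA was silenced or deleted. From what is known of the study, and not from the labels, the knockdown used an RNA hairpin driven from a bacterial artificial chromosome that carries the Aire locus. If so, silencing would be limited to cells that use the Aire promoter. Whether the knockout lacks C2TA in every cell of the animal is not given by the labels.

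The values were log2 RMA levels of 35552 probe sets, of which 21536 had a gene symbol, and these stood for 19593 genes with 1 probe set each. RMA subtracts background, brings the arrays to a common distribution and combines the probes that read one transcript. A difference below is always the knockdown mean minus the knockout mean on the log2 scale, so a difference of 1 is a 2-fold higher level in the knockdown. A gene passed when limma gave it a Benjamini-Hochberg adjusted p under 0.05 over all 19593 genes. Levels of different genes were not set against each other, because a probe set's level also depends on its probes.

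Medullary epithelial cells display antigens of other organs to developing T cells. Aire, a nuclear regulator of these cells, turns on many of the genes for such antigens. CD4 T cells recognise antigen on MHC class II molecules. The alpha and beta chains of these molecules assemble with the invariant chain, which is exchanged for peptide in endosomes with the help of H2-M, while H2-O holds H2-M back. C2TA does not bind DNA itself and is recruited to class II promoters by RFX, CREB and NF-Y, which sit on conserved elements called the X and Y boxes.

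The medians of the 6 arrays lay between 4.51 and 4.54. Knockout 7 stood apart, with the lowest interquartile range of the 6, 2.37 against 2.53 to 2.77 on the others, and with the lowest mean correlation to its own group, 0.984 against 0.989 for knockouts 8 and 9 and 0.991 to 0.993 for the knockdown arrays. The main results, and list medians that shifted without it, are also given without it. Mean correlations with the knockdown arrays were 0.9835, 0.9888 and 0.9895 for knockouts 7, 8 and 9. For knockouts 8 and 9 these were no lower than the 0.9888 and 0.9890 with their own group. The knockdown arrays had 0.986 to 0.988 with the knockout arrays, below those with their own group. Markers of the labelled cell type were present on each of the 6 arrays, with Aire at 9.71 or above, Krt5 at 8.45 or above and Fezf2 at 8.15 or above. Over all genes the median difference was 0.0006, the 5th percentile -0.29 and the 95th 0.29.

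In the knockdown 8 genes were higher than in the knockout and 1 was lower, 0.0408% and 0.0051% of the 19593 genes tested, or 0.0459% in either direction. The 8 higher genes fall into 3 genes of MHC class II presentation, H2-Ea, H2-Aa and H2-DMb2, and a run around Aire, namely Aire itself, Cfap410, Pfkl, Gatd3a and Pwp2. The 1 lower gene was Slc43a3, a member of a family of membrane transporters. After a repeated quantile normalization 24 genes were higher and 7 lower, and without knockout 7 the 3 genes past the threshold were H2-Ea, H2-Aa and Pwp2, all higher. An unadjusted p under 0.05 was reached by 761 genes on the higher and 611 on the lower side, 3.88% and 3.12% of those tested, or 7.0% in either direction. The arrays of the groups did not overlap in 1055 genes that were higher and 827 that were lower in the knockdown, 5.38% and 4.22%, or 9.61% in either direction. In cells sorted in bulk, fewer cells of a type and less RNA in each of them cannot be told apart. A difference beyond 1 was seen in 17 genes on the higher side and in 7 on the lower side.

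Ciita, the targeted gene, had 5.44, 4.94 and 5.50 in the knockdown, against 5.96, 6.16 and 6.11 in the knockout. The groups did not overlap and knockdown 5 was the lowest array. The difference of -0.78 (SE 0.16, 1.72-fold) did not pass, with a limma adjusted p of 0.268 and a range of 0.0747 to 0.761 over the alternatives. Which part of the transcript the probe set reads, and which part the knockout allele lacks, is not given. Its level was therefore not used to check the knockout label, and the cause of the difference was not tested. The 12 measured neighbours of Ciita, 6 on each side, lay between -0.14 for Socs1 and 0.45 for Emp2, and none passed.

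H2-Ea, the alpha chain of the I-E molecule, which Balb/c mice express and some other strains lack, had log2 levels of 9.41, 9.41 and 9.57 in the knockdown, against 5.42, 5.64 and 5.50 in the knockout. The groups lay far apart, and the spread within each was a small fraction of the gap. The difference was 3.94 (SE 0.09, 95% interval 3.72 to 4.17, 15.4-fold), with a limma adjusted p of 4.62e-05.

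H2-Aa, the alpha chain of the I-A molecule, had 9.17, 9.06 and 9.30 in the knockdown, against 5.88, 6.20 and 6.29 in the knockout. All 3 knockdown arrays were above all 3 knockout arrays, and knockout 7 was the lowest. The difference was 3.05 (SE 0.13, 8.31-fold, limma adjusted p of 0.00113). These 2 alpha chains are the 2 genes that passed without any 1 of the 6 arrays as well, with limma adjusted p-values of at most 0.00408 for H2-Ea and 0.0494 for H2-Aa over all alternatives.

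The probe sets of the beta chains had smaller log2 differences. How far the size of a difference depends on the probes was not tested. H2-Ab1, the beta chain of I-A, had 8.75, 8.48 and 8.84 in the knockdown, against 7.46, 7.73 and 8.16 in the knockout. The groups did not overlap, but the knockout arrays spanned a wide range with knockout 7 at the bottom, and the difference of 0.91 (SE 0.19) did not pass (limma adjusted p of 0.295). H2-Eb1, the beta chain of I-E, had 9.75 on each of the 3 knockdown arrays, against 8.96, 8.97 and 9.25 in the knockout. Its knockdown values are equal, so the spread of that group is understated, and the cause was not tested. The difference of 0.69 (SE 0.10) did not pass (limma adjusted p of 0.15).

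Cd74, the invariant chain, had 9.90, 9.71 and 9.76 in the knockdown, against 8.42, 8.75 and 9.13 in the knockout. Here too the groups were separate and knockout 7 was the lowest array. The difference of 1.02 (SE 0.18, 2.03-fold) did not pass (limma adjusted p of 0.199). Without knockout 7 the differences of Cd74, H2-Ab1 and H2-Eb1 were 0.85, 0.75 and 0.64.

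Among the chaperones of peptide loading, H2-DMb2, a beta chain of H2-M, had 7.57, 7.47 and 7.99 in the knockdown, against 5.69, 5.56 and 5.47 in the knockout. The groups were separate and knockdown 6 was the highest array. The difference was 2.10 (SE 0.15, 4.29-fold, limma adjusted p of 0.0121), and it was 2.16 with an adjusted p of 0.0996 without knockout 7. The closely similar H2-DMb1 may contribute to this signal, so which of the copies it reads is uncertain. H2-DMa, the alpha chain of H2-M, had 4.16, 4.29 and 4.02 in the knockdown, against 3.91, 3.82 and 3.67 in the knockout. These levels were low in both groups, and the difference of 0.36 (SE 0.11) did not pass (limma adjusted p of 0.474).

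H2-Oa, the alpha chain of H2-O, was the 1 measured class II gene with a lower mean in the knockdown. It had 5.54, 5.58 and 5.73 in the knockdown, against 5.70, 5.92 and 6.10 in the knockout. The groups overlapped, and the difference of -0.29 (SE 0.12, 95% interval -0.58 to 0.0019) did not pass (limma adjusted p of 0.715).

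Of the 11 class II genes listed 8 were measured. Their median difference was 0.97, against 0.0006 over all genes, 7 of the 8 had higher means in the knockdown, and 3 passed. The same 7 were also the ones whose groups did not overlap, where 5.38% of all genes were higher without overlap. The median was 0.80 without knockout 7. In the gene order of chromosome 17 the class II genes are interspersed with genes of the class I pathway. Psmb9 and Psmb8, subunits of the immunoproteasome that lie between H2-DMb2 and H2-Ab1, had differences of -0.24 and -0.28, and Tap1 and Tap2, which carry peptides into the endoplasmic reticulum, had -0.10 and -0.06. Btnl2, the next measured gene after H2-Ea, had -0.43. Of the 18 measured genes in this stretch, 3 passed, all higher, against 0.0408% of all genes. The median of the 18 was 0.02. Without overlap 6 were higher and 4 lower, against 5.38% and 4.22% of all genes. The 4 lower were Psmb9, Psmb8, Btnl2 and Btnl1. The stretch was chosen after its values were seen.

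**Figure D1:**
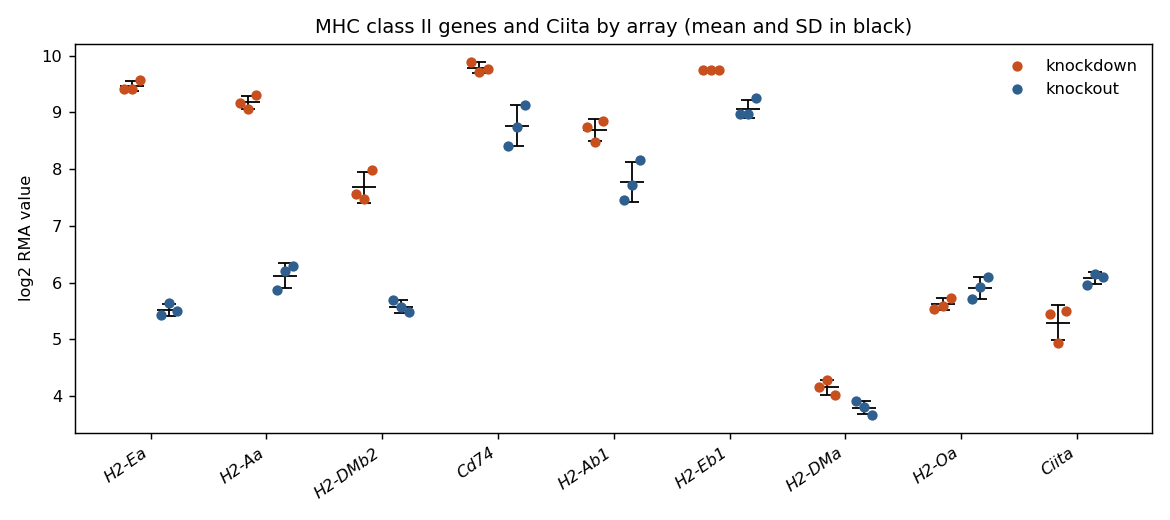
Log2 RMA level (vertical axis) of the 8 measured MHC class II genes and Ciita on each array, knockdown in orange left of knockout in blue, with the mean and SD of 3 arrays in black. H2-Ea, H2-Aa and H2-DMb2 lie far apart between the groups with differences of 3.94, 3.05 and 2.10, H2-Oa overlaps, and Ciita lies lower in the knockdown.

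Among the partners that bring C2TA to promoters, and its relatives, no difference passed. Of 12 measured partner factors 0 passed and 0 had an unadjusted p under 0.05. Rfx5, Rfxap and Rfxank, the subunits of RFX, had differences of 0.10, -0.05 and -0.05, and Nfya, Nfyb and Nfyc of NF-Y had 0.17, 0.02 and -0.18. Nlrc5, a relative of C2TA that acts on class I genes, had -0.31 (limma adjusted p of 0.799).

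The promoters of class II genes are shown because C2TA acts through them. The stretches below are from the RefSeq promoter windows of build GRCm38.p6, which is the C57BL/6J genome and not that of Balb/c, and run 5′ to 3′ on the strand of the gene. Capitals mark TGATTGG, the letters of the Y box, and GCAAC, letters found in the X box, searched on both strands within the 250 bases before the gene start. Of the measured class II genes on chromosome 17, H2-Ea and H2-Ab1 have no entry, and the 4 with TGATTGG are given.
H2-Aa: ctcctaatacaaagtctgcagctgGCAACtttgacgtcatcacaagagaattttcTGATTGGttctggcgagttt
H2-Eb1: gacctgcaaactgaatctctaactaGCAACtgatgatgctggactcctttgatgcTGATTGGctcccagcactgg
H2-Oa: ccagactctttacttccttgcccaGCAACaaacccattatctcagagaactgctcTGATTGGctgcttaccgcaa
H2-DMb2: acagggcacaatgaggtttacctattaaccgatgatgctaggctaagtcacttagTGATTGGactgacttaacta
They lie at chr17:34287854-34287928 on the minus strand for H2-Aa, and on the plus strand at chr17:34305751-34305825 for H2-Eb1, chr17:34092279-34092353 for H2-Oa and chr17:34145102-34145176 for H2-DMb2. The Y letters begin 50, 61, 45 and 92 bases before the start of H2-Aa, H2-Eb1, H2-Oa and H2-DMb2. TGATTGG occurs in 7.23% of all 32851 promoter windows, GCAAC in 29.9% and both in 2.35%. The genes under these 4 stretches had differences of 3.05, 0.69, -0.29 and 2.10. Of the 2 windows of H2-DMa neither holds TGATTGG.

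Aire and the genes around it made up the other part of the higher genes. Aire had log2 levels of 11.50, 11.44 and 11.25 in the knockdown, against 9.76, 9.71 and 9.86 in the knockout. The groups were separate by more than the spread of either. The difference was 1.62 (SE 0.10, 3.08-fold, limma adjusted p of 0.00518), and it was 1.62 with an adjusted p of 0.0787 without knockout 7.

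On one side of Aire on chromosome 10 lie Pfkl and Cfap410. Pfkl, the liver-type phosphofructokinase of glycolysis, had 7.92, 7.98 and 7.87 in the knockdown, against 5.92, 6.38 and 5.93 in the knockout. It rose by 1.84 (SE 0.14, 3.59-fold, limma adjusted p of 0.0137). Cfap410, a cilia-associated gene named 1810043G02Rik on the array, had 5.96, 5.87 and 5.70 in the knockdown, against 4.73, 4.42 and 4.55 in the knockout. It rose by 1.27 (SE 0.12, limma adjusted p of 0.0383), and it did not pass when any 1 of the 6 arrays was left out.

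On the other side Dnmt3l and Icosl come first, and then Gatd3a and Pwp2. Dnmt3l, a cofactor of DNA methyltransferases, had a difference of 0.19 and Icosl, a costimulatory ligand, had -0.29; the groups overlapped for both. Gatd3a, named D10Jhu81e on the array, had 7.72, 7.62 and 7.50 in the knockdown, against 5.47, 6.00 and 5.66 in the knockout, a difference of 1.90 (SE 0.15, 3.74-fold, limma adjusted p of 0.0149). Pwp2, a protein of ribosomal RNA processing, had 6.56, 6.45 and 6.57 in the knockdown, against 4.53, 4.78 and 4.75 in the knockout, a difference of 1.84 (SE 0.10, limma adjusted p of 0.00279). Both were higher on every knockdown array than on any knockout array.

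Genes further out did not pass. Trpm2, a cation channel next to Cfap410, had a difference of 0.10, and Trappc10 and Agpat3, which follow Pwp2, had -0.02 and 0.26. Of the 13 genes of this stretch, which is centred on Aire, 5 passed, all higher, against 0.0408% of all genes. The 8 others lay between -0.29 and 0.29, and of these Agpat3 was higher without overlap. Pwp2 was the 1 of 25 measured genes of ribosomal RNA processing that passed, and the median of that list was -0.05, or -0.15 without knockout 7. If the knockdown construct carries copies of this stretch, transcripts from the copies and from the native genes cannot be told apart on these arrays.

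**Figure D2:**
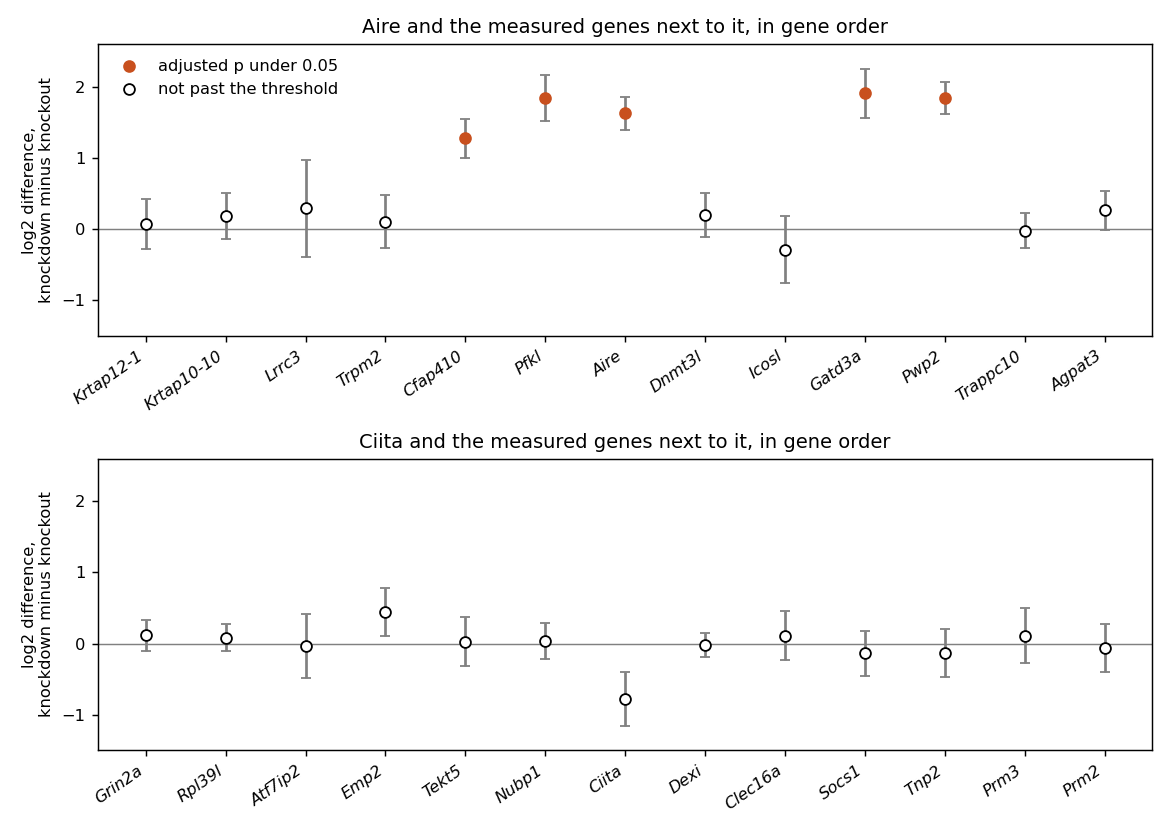
Log2 difference between knockdown and knockout (points) with its 95% interval (bars) for 13 genes around Aire (top) and 13 around Ciita (bottom), in gene order from left to right and not to scale. Filled points passed at an adjusted p under 0.05: Cfap410, Pfkl, Aire, Gatd3a and Pwp2 lie between 1.27 and 1.90. Between them Dnmt3l with 0.19 and Icosl with -0.29 did not pass, and no gene around Ciita passed.

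Genes that Aire is known to induce lay on both sides. Of 24 measured Aire-dependent antigens 0 passed, and the median was -0.03. At an unadjusted p under 0.05 there were 5 lower and 2 higher, against 3.12% and 3.88% of all genes. Apoa4 and Apoa1, apolipoproteins of gut and liver, had -0.63 and -0.50, Tff3, a trefoil peptide of mucus, had -0.58, and Mup1 and Mup2, major urinary proteins of the liver with near-identical copies, had 0.92 and 0.94. Of 17 measured partner proteins of Aire 0 passed. The list of mature medullary epithelium, to which Aire belongs, had a median of -0.17. Cd86, a costimulatory ligand, had 5.18, 5.0 and 5.22 in the knockdown, against 5.68, 6.36 and 6.05 in the knockout, a difference of -0.90 (limma adjusted p of 0.239). Cd80, the surface marker of the sort, had -0.26, and Fezf2, another regulator of tissue antigens, had -0.06.

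Genes of keratinized epithelium, the program of the outer epidermis that medullary cells also turn on late in their life, had the highest median among the pathway and cell type lists after class II. It was 0.32, and 26 of the 29 measured members had higher means in the knockdown, while of all genes 50.2% had higher and 49.7% lower means. None of them passed, and 17 had an unadjusted p under 0.05, all higher, against 3.88% of all genes. Krt1, a keratin of suprabasal epidermis, had 9.02, 8.62 and 8.88 in the knockdown, against 7.11, 7.29 and 7.57 in the knockout. No array of one group reached the other, and the difference of 1.52 (SE 0.15, 2.86-fold) had a limma adjusted p of 0.0608, just over the threshold. It passed in a fit over all 9 arrays, with a limma adjusted p of 0.0132. In all it passed in 6 of 11 alternatives that left out no array, and in 0 of 6 that left out 1. The limma adjusted p reached 0.445.

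Krt10, the partner of Krt1 in keratin filaments, had a difference of 0.80 (limma adjusted p of 0.158). Krt79, a keratin of hair follicles, had 8.26, 8.19 and 8.28 in the knockdown, against 7.53, 7.53 and 7.54 in the knockout. The arrays of each group agreed closely, and the difference of 0.71 had a limma adjusted p of 0.0608. Krt80, and Krt84, a keratin outside the list, had 0.69 and 0.86 with the same adjusted p. Further members with an unadjusted p under 0.05 were Lor, or loricrin, the main protein of the cornified envelope, with 0.60, Sbsn, or suprabasin, with 0.73, Dsc1, a desmosomal cadherin, with 1.10, and Tgm3 and Tgm1, which cross-link the envelope, with 0.58 and 0.32. Members of the same list lay near 0 or below it: Krt6a, a keratin of stressed epidermis, had -0.03, Krt6b had -0.16 and Sprr3 had -0.32.

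The type II keratins lie side by side on chromosome 15, in a stretch of 35 measured genes chosen after its values were seen. Of these, 0 passed and 8 were higher without overlap, against 5.38% of all genes; the 8 include Acvr1b, a receptor kinase with 0.71, and Krt18, a type I keratin. Krt1 lay beside Krt2, a keratin of the uppermost epidermis, with 0.09 and Krt77 with 0.71, and Krt79 beside Krt4 with -0.14 and Krt78 with 0.12. Krt8 and Krt18, keratins of simple epithelium, had 0.07 and 0.17, and Krt5, a keratin of basal cells, had 0.40, whereas its partner Krt14 had -0.01. Of all 48 measured keratins 12 had an unadjusted p under 0.05, all higher, against 3.88% of all genes, and the median of the 48 was 0.05. The late cornified envelope genes, small proteins of the same layer with similar sequences, had a median of 0.21, with 13 of 17 means higher. An unadjusted p under 0.05 was reached by 5, all higher, among them Lce1b with 0.75, against the same 3.88%. These families and those below were chosen after their values were seen.

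**Figure D3:**
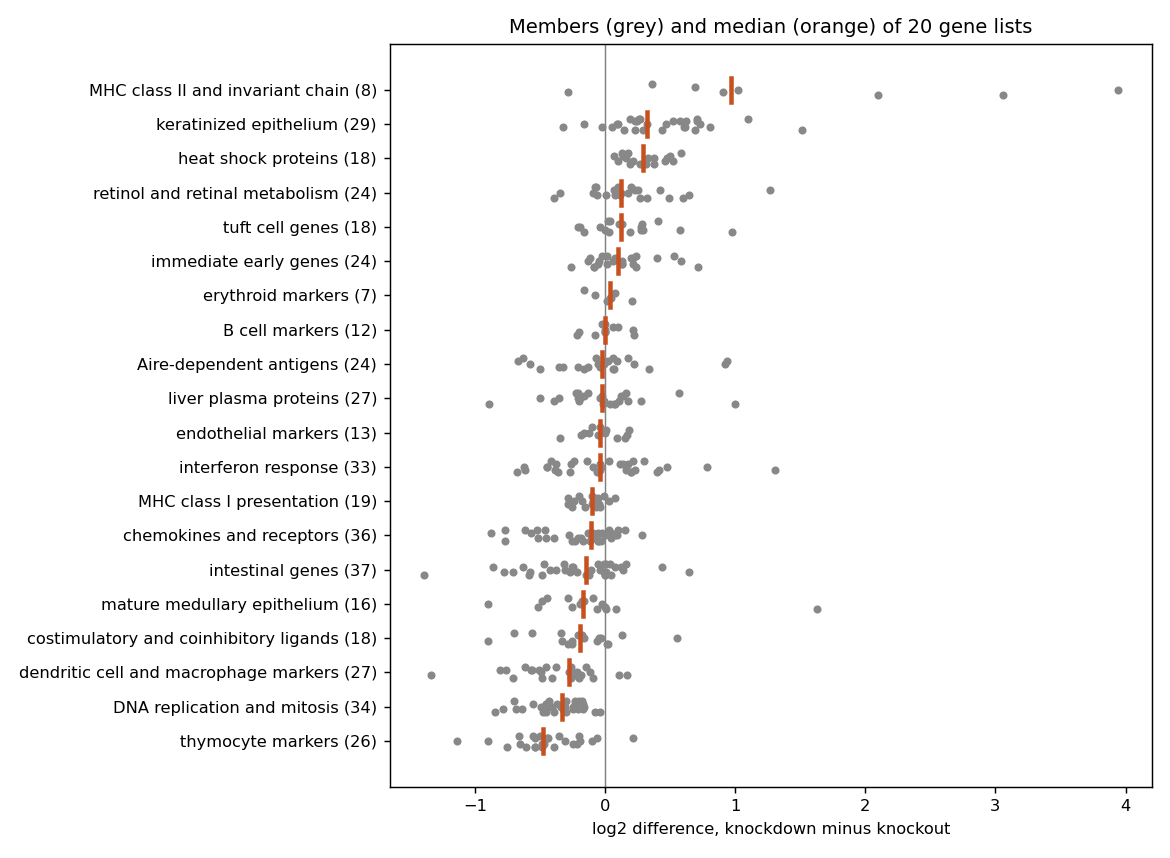
Log2 difference between knockdown and knockout (horizontal axis) for each member (grey) and the median (orange) of 20 gene lists, with the number of measured members in brackets. MHC class II has a median of 0.97 and keratinized epithelium 0.32 at the top, and thymocyte markers lie lowest with -0.48.

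Further genes, taken by their p and not by a shared role, lay close to the threshold on the higher side. Aldh1a7, an aldehyde dehydrogenase, had 5.40, 5.02 and 5.49 in the knockdown, against 3.97, 3.98 and 4.16 in the knockout. Every knockdown array lay higher, and the difference of 1.27 (SE 0.14) had a limma adjusted p of 0.0608. Alb, or serum albumin, a liver protein that medullary cells express as an antigen, had 6.01, 6.03 and 6.29 in the knockdown, against 5.09, 5.23 and 5.02 in the knockout. Its difference was 1.0 (SE 0.11), with the same adjusted p of 0.0608. Of the other 26 liver plasma proteins on the list, Hp, or haptoglobin, had 0.57 and Apoc3 had -0.90, and the median of all 27 was -0.03. Chil4, a chitinase-like protein, had 0.89 (0.0608 again), Gsta4, a glutathione transferase, 0.69, and Anxa8, an annexin, 0.89.

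Genes of retinol and retinal metabolism, the pathway that leads to retinoic acid and removes it, had a median of 0.12 with 18 of 24 means higher and 0 past the threshold. Besides Aldh1a7, Aldh1a1 had 0.49, Rdh12 0.65 and Rdh9 0.42, whereas Lrat, which esterifies retinol, had -0.35 and Cyp26a1, which degrades retinoic acid, had -0.39. Tuft cells are chemosensory epithelial cells that also occur in the medulla, and 13 of 18 measured tuft cell genes had higher means, with a median of 0.12 and 0 past the threshold. Dclk1, a kinase that marks them, had 6.77, 6.43 and 6.56 in the knockdown, against 5.34, 5.72 and 5.76 in the knockout. The groups were separate, and the difference of 0.98 (SE 0.15) did not pass (limma adjusted p of 0.15). Avil and Trpm5, of the cytoskeleton and of taste transduction, had 0.40 and 0.29, but Pou2f3, the transcription factor of the lineage, had 0.27 with overlap and Il25, its cytokine, had 0.11.

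Heat shock proteins had higher means in the knockdown in 18 of 18 members, with a median of 0.29 and 0 past the threshold. An unadjusted p under 0.05 was reached by 6 of them, against 3.88% of all genes on the higher side. Dnajb1, a cochaperone, had 8.24, 8.24 and 7.77 in the knockdown, against 7.37, 7.53 and 7.59 in the knockout, a difference of 0.59 (limma adjusted p of 0.384). Its knockdown 6 lay nearest to the knockout arrays. Relative to the mean of the 6 arrays, the list stood at 0.29, 0.17 and -0.0055 on knockdowns 4, 5 and 6, against -0.31, -0.0022 and -0.14 on knockouts 7, 8 and 9, so knockdown 6 and knockout 8 were alike. The median was 0.19 without knockout 7. Immediate early genes, which respond within minutes to handling of cells, had a median of 0.10, with Fos at 0.72 and Egr2 at 0.58, and the median turned to -0.03 without knockout 7.

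On the lower side the 1 gene past the threshold was Slc43a3. It had 6.22, 6.21 and 6.25 in the knockdown, against 6.96, 7.05 and 7.02 in the knockout. The arrays within each group were close together, and it fell by 0.78 (SE 0.07, 1.72-fold, limma adjusted p of 0.0411). In a fit over all 9 arrays, which shares 1 estimate of the spread, its adjusted p was 0.554. Slc43a3 passed in 7 of 11 alternatives that left out no array, and in 0 of 6 that left out 1.

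Of 37 measured intestinal genes 10 had higher means in the knockdown, the median was -0.15, or -0.23 without knockout 7, and 0 passed. At an unadjusted p under 0.05 there were 12 lower and 1 higher, against 3.12% and 3.88% of all genes. Lypd8, a protein of the colon that binds bacteria and is named 2210415F13Rik on the array, had 6.71, 6.44 and 6.28 in the knockdown, against 7.54, 7.78 and 8.28 in the knockout. The groups were separate, and the difference of -1.39 (SE 0.21, 2.62-fold), the lowest of all genes, did not pass (limma adjusted p of 0.15). Muc3, a membrane mucin, had 4.96, 4.82 and 4.69 in the knockdown, against 5.70, 5.60 and 5.53 in the knockout, a difference of -0.78 (limma adjusted p of 0.118). Cdh17, a cadherin of the gut, had -0.86, Slc39a4, a zinc transporter, -0.71 and Vil1, or villin of the brush border, -0.38. Slc5a1, the sodium and glucose cotransporter, went the other way with 0.64, and Cdx2, a transcription factor of the gut, had 0.04.

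Genes of other tissue programs were split. Chga, or chromogranin A of neuroendocrine granules, had 5.98, 5.85 and 6.24 in the knockdown, against 6.90, 6.96 and 7.26 in the knockout. Every knockdown array lay lower, and the difference of -1.01 (SE 0.14) did not pass (limma adjusted p of 0.15), while Chgb and Syp, further granule and vesicle proteins, had 0.05 and 0.01. Of 13 measured kallikrein 1-related peptidases, salivary gland proteases with near-identical copies, 0 had a higher mean, and the median was -0.39, with Klk1b26 at -1.07. Of 10 measured alpha-defensins, antimicrobial peptides of the small intestine that also have near-identical copies, 9 had higher means, with a median of 0.37 and Defa29 at 0.60. Of 8 fatty acid-binding proteins 7 had lower means, and of 12 apolipoproteins 10 did. None of these families had a member past the threshold. Target antigens of organ-specific autoimmunity had a median of -0.05 over 28 members, or 0.01 without knockout 7, with Tgm2, or tissue transglutaminase, at -0.70 and Ins2, or insulin, at -0.17.

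**Figure D4:**
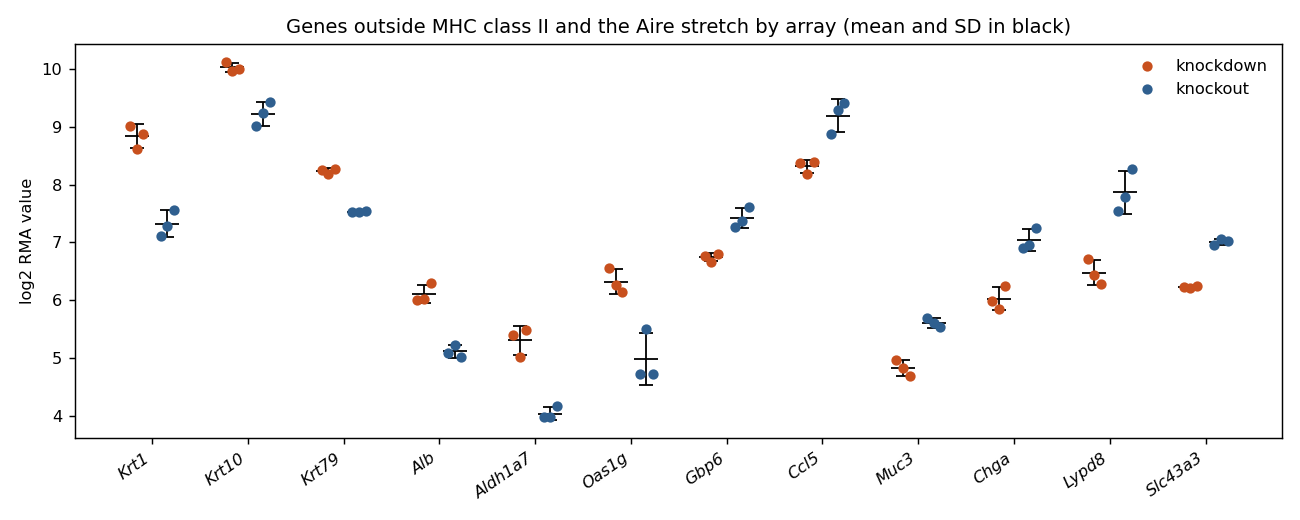
Log2 RMA level (vertical axis) of 12 genes outside class II and the Aire stretch on each array, knockdown in orange left of knockout in blue, with the mean and SD of 3 arrays in black. Slc43a3 on the right passed the threshold and is lower in the knockdown, and the 11 others, chosen after their values were seen, did not pass.

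Of 26 measured thymocyte markers 1 had a higher mean in the knockdown, the median was -0.48, 0 passed and 7 were lower at an unadjusted p under 0.05, against 3.12% of all genes. The mean level of these markers lay between 4.62 and 4.84 on the knockdown arrays, against 4.66 to 5.53 on the knockout arrays. Relative to the mean of the 6 arrays it stood at -0.27, -0.31 and -0.09 on knockdowns 4, 5 and 6, against -0.27, 0.61 and 0.33 on knockouts 7, 8 and 9, so knockout 7 lay with the knockdown arrays. The median was -0.71 without knockout 7 and -0.24 without knockout 8. Rag1, which cuts antigen receptor genes, had 5.06 ± 0.34 in the knockdown and 6.20 ± 0.79 in the knockout (SD, n = 3 each) and the groups overlapped. Cd3e, a chain of the T cell receptor complex, had a difference of -0.48, and Ptprc, or CD45, had -0.54.

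Markers of dendritic cells and macrophages had a median of -0.28, with 2 of 27 means higher and 25 lower, where 49.7% of all genes had lower means. None passed, and 10 were lower at an unadjusted p under 0.05, against 3.12% of all genes. Their mean level lay between 4.77 and 4.90 in the knockdown, against 4.91 to 5.41 in the knockout, and knockout 7 was again the lowest of its group. Without it the median was -0.48. Itgax, or CD11c, had 3.18, 3.18 and 3.03 in the knockdown, against 3.80, 3.67 and 4.04 in the knockout, a difference of -0.71 (limma adjusted p of 0.185). Irf8, a transcription factor of these cells, had -0.49, and Mpeg1, a pore-forming protein of macrophages, had -1.34 with overlap. Markers of B cells, endothelium and red cells had medians of -0.0012, -0.04 and 0.04, and that of red cells was -0.05 without knockout 7.

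Chemokines and their receptors had a median of -0.11, or -0.19 without knockout 7, with 0 of 36 past the threshold. At an unadjusted p under 0.05 there were 8 lower and 0 higher, against 3.12% and 3.88% of all genes. Ccl5, which attracts T cells, had 8.37, 8.18 and 8.40 in the knockdown, against 8.87, 9.30 and 9.41 in the knockout, a difference of -0.88 (limma adjusted p of 0.199). Gpr183, a receptor that guides immune cells and is named Ebi2 on the array, had -0.77, and Ccl19, a ligand of Ccr7, had -0.52. Il15, a growth factor of lymphocytes that epithelial and dendritic cells make, had 5.29, 4.89 and 4.86 in the knockdown, against 5.90, 6.23 and 5.82 in the knockout, a difference of -0.97 (limma adjusted p of 0.186). Il10ra and Ebi3, a cytokine receptor and a cytokine subunit, had -0.69 and -0.65. The part of the thymocyte, dendritic cell and macrophage markers in these differences was not tested.

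Interferon response genes were split by family. Guanylate-binding proteins, which interferon gamma induces, had lower means in 8 of 8 members with a median of -0.45, and Gbp6, named Mpa2l on the array, had 6.76, 6.66 and 6.80 in the knockdown, against 7.27, 7.38 and 7.61 in the knockout. Its difference of -0.68 did not pass (limma adjusted p of 0.175). The oligoadenylate synthetases, sensors of viral RNA, had higher means in 9 of 11 members. Oas1a had 5.94, 5.99 and 6.02 in the knockdown, against 3.99, 4.90 and 5.16 in the knockout, a difference of 1.30 (limma adjusted p of 0.313), and its knockout arrays spread widely with knockout 7 at the bottom. Oas1f and Oas1g had 1.45 and 1.34, and these genes are near-identical copies whose signals may be shared. Isg15, a ubiquitin-like protein that interferon induces, had 0.14, and the median of the 33 measured response genes was -0.04, or -0.15 without knockout 7. MHC class I genes, which respond to the same signals, had a median of -0.10 (-0.21 without knockout 7) with 2 of 19 means higher, and H2-K1 and B2m, a heavy chain and the shared light chain, had -0.15 and -0.05.

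Genes of DNA replication and mitosis had lower means in the knockdown in 34 of 34 members, with a median of -0.33 and 0 past the threshold. An unadjusted p under 0.05 was reached by 8 of them, against 3.12% of all genes on the lower side. Ccna2, or cyclin A2, had 5.47, 5.17 and 5.36 in the knockdown, against 5.82, 6.50 and 6.02 in the knockout, a difference of -0.78 (limma adjusted p of 0.341). Knockout 8 was its highest array. Relative to the mean of the 6 arrays the list stood at -0.16, -0.26 and -0.13 on knockdowns 4, 5 and 6, against -0.07, 0.55 and 0.08 on knockouts 7, 8 and 9. The median was -0.19 without knockout 8. Thymocyte markers were highest on the same array, and their part in the difference was not tested.

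**Figure D5:**
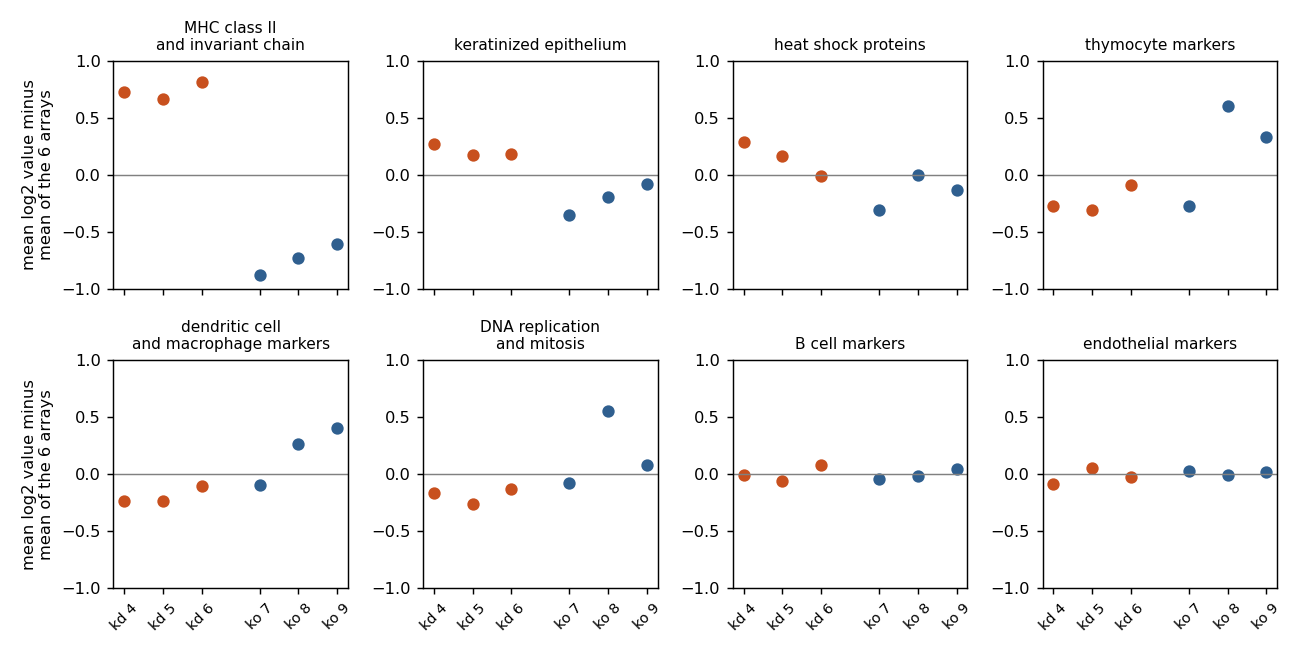
Mean log2 level of 8 gene lists on each array minus the mean of the 6 arrays (vertical axis), knockdown arrays (kd, orange) left of knockout arrays (ko, blue). MHC class II and keratinized epithelium separate the groups, whereas knockout 7 lies with the knockdown arrays for thymocyte markers and knockout 8 stands highest for thymocyte markers and for DNA replication and mitosis.

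Other machinery of antigen presentation and of medullary cells showed 0 genes past the threshold. Of 15 measured genes of class II antigen processing, Ctss, or cathepsin S, which cuts the invariant chain, had a difference of -0.41, Ctsd, another endosomal protease, had 0.37 and Ifi30, a thiol reductase of endosomes, had -0.34. Autophagy, which brings a cell's own proteins to class II molecules, had a median of 0.12 over 24 measured genes, with 17 means higher and Map1lc3b, an LC3 protein of the autophagosome, at 0.28. Without knockout 7 that median was 0.0054. The NF-kB pathway, which drives the maturation of medullary cells, had a median of -0.04 over 27 genes, with Relb at -0.20 and Tnfrsf11a, or RANK, at -0.09, and the median was -0.12 without knockout 7. Claudins and junction genes had a median of 0.09, serpins -0.04 (-0.12 without knockout 7) and cytochrome P450 enzymes 0.03.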

How the data were processed

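Gene expression was measured on arrays from 3 knockdown and 3 knockout samples, grouped by their titles. The log2 values used here were deposited by the authors and come from RMA according to the submitters' processing notes. Software version, genome build and annotation release: not given in the sources used here, so none is named. A second deposited copy of the log2 values was identical in all 319968 values, and the deposited linear intensity values differ from them by at most 7.2e-10 after taking log2, so neither was tested again. The authors' deposited table also holds a q-value per probe set, a score whose comparison is not stated, and it was not used here.

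Through the RefSeq gene table of mouse build GRCm38.p6, accessions gave current names to 15192 probe sets, symbols to 3746 and synonyms to 1262, while 1336 stayed as named in the file. The 14016 probe sets with no symbol were left out, and the 938 genes with several probe sets kept the one with the highest mean over the 6 arrays. Low genes were kept. Differences were tested on the 6 arrays with limma 3.58.1 (R 4.3.3; eBayes after lmFit), with 4 residual degrees of freedom, two-sided, with Benjamini-Hochberg adjustment over 19593 genes and a threshold of 0.05. With 3 arrays a side, exact permutation allows no p below 0.1. Figures and counts were made in Python 3.11.15. The fit was tested on simulated data. These had independent noise for each gene and array, with no shift shared by the genes of an array and no equal values, so recovery in the real data may differ. It recovered 8 of 50 genes changed by 0.5, 28 of 50 changed by 1 and 49 of 50 changed by 2, and it called 5 unchanged genes. Precision is limited by having 3 arrays a group. In the deposited values 525 genes were equal on all 3 knockdown arrays and 351 on all 3 knockout arrays, so their spread is understated.

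The genes and lists were chosen with earlier results of these data known. The naming rule took Ciita, Aire, the measured MHC class II genes, 6 measured neighbours on each side of Aire and Ciita, per direction up to 15 genes past the threshold filled up to 10 by p, and from each other list up to 5 members past the threshold or else the 2 with the smallest p. Other members were named as examples after their values were seen. No list was tested. As alternatives all 9 arrays were fitted together, quantile normalization was repeated, arrays were centred on their medians, genes under a mean of 4 or of 6 were dropped, an intensity trend (plain or robust) or array weights were used, probe sets were chosen otherwise, and each array was left out in turn.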

Additional observations from a re-analysis of the deposited data

How the results depend on the processing

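The 9 genes past the threshold became 31 after a repeated quantile normalization (24 higher, 7 lower), 15 after centring each array (13 and 2), 18 with a mean log2 value above 4 (17 higher), 38 above 6 (29 and 9), 60 with array weights (33 and 27) and 18 over all probe sets of the table (10 lower); the lower count was 0 in the fit over all 9 arrays and with an intensity trend, robust or not. All 9 were among the genes called above 4, with array weights, after quantile normalization and after centring, and 7 among the 38 above 6. Leaving out 1 array gave 2 to 5 genes past the threshold, 2 to 5 higher and 0 lower. Without knockout 7 there were 3, namely H2-Ea, H2-Aa and Pwp2. The MHC class II genes past the threshold were 5 above a mean of 6 and 2 to 3 without 1 array. The class II median of 0.97 was 1.56 above a mean of 6, 0.82 with array weights and 0.80 to 1.15 without 1 array. The keratinized median of 0.32 was 0.44 above a mean of 4, 0.52 above 6 and 0.33 to 0.44 without 1 array. Without 1 array the intestinal median lay between -0.23 and -0.10, that of dendritic cells and macrophages between -0.48 and -0.25, of DNA replication between -0.47 and -0.19, of thymocyte markers between -0.71 and -0.24 and of heat shock proteins between 0.19 and 0.41. The cause of these shifts was not tested, apart from the smaller number of genes or arrays in some settings.

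Among the genes named by rule, signs turned for 9 near 0 that did not pass: Atf7ip2 had 0.14 with array weights and 0.0058 with the mean of all probe sets, and with array weights Nubp1 had -0.0124 and Prm2 had 0.0378. Leaving out 1 array, the differences ran from -0.1769 to 0.1304 for Atf7ip2, -0.0293 to 0.0036 for Dexi, -0.0288 to 0.196 for Krtap12-1, -0.0467 to 0.1112 for Nubp1, -0.165 to 0.0906 for Prm2, -0.0764 to 0.1711 for Tekt5, -0.2055 to 0.0115 for Tnp2, -0.1038 to 0.0429 for Trappc10 and -0.0686 to 0.2338 for Trpm2. No paired analysis was made, because the replicate numbers in the titles run on through the groups and name no pairs.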

Other observations

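The probe sets without a gene symbol were fitted together with all others, 35552 in all. Of the 14016 without a symbol 11 passed (limma, with Benjamini-Hochberg adjustment), 1 higher and 10 lower in the knockdown. They hold 4 distinct sets of values, and 7 of them share 1 set, so they are not independent measurements. These 7 had log2 levels of 5.34, 5.19 and 5.24 in the knockdown, against 6.89, 6.59 and 6.89 in the knockout, a difference of -1.53 (SE 0.11, adjusted p of 0.0251). The 1 higher probe set had 3.45, 3.39 and 3.46 in the knockdown, against 2.49, 2.42 and 2.38 in the knockout, a difference of 1.0 (adjusted p of 0.0307). No gene was named for them here.

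Olfactory receptors, a large family of sensory receptors that lay near the lower end of the scale, gave a view of genes with little signal. Of 1083 measured members 1064 had a mean under 4, and the median difference was -0.0088. At an unadjusted p under 0.05 there were 8 higher and 8 lower, against 3.88% and 3.12% of all genes. Without knockout 7 the median was 0.04 and 753 members had higher means, against 498 with it. Over all alternatives the median ran up to 0.18, but these include fits without genes under a mean of 4, which drop most of this family. Knockout 7 stood at 0.14 relative to the mean of the 6 arrays over this family, and the other 5 arrays lay between -0.08 and 0.03. Olfr1136 had a difference of -0.89 with an adjusted p of 0.0608.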
